A study of Mus musculus with 18 samples.

Results

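The genes described here are 10 cytokine genes that act through the TNF, IL-6, IL-10 and IL-12 families, namely *Tnf*, *Il6*, *Osm*, *Lif*, *Il10*, *Il12a*, *Il12b*, *Il23a*, *Il27* and *Ebi3*. They were chosen by symbol and were 10 of the 21254 genes in the table of read counts, and all 10 passed the filter on low counts. RNA-seq libraries were made from 3 populations sorted by flow cytometry from mouse lungs 24 h after nebulization of *Pseudomonas aeruginosa* lipopolysaccharide (LPS, 12.5 mg in a volume of 5 ml for 15 min). The populations were monocyte-derived macrophages (moMs, CD45+CD11b+MHC-II-Ly6C+), transitional interstitial macrophages (tnsIMs, CD45+CD11b+MHC-II+Ly6C+) and mature interstitial macrophages (matIMs, CD45+CD11b+MHC-II+Ly6C-). Ezr-KOm mice carry floxed *Ezr* alleles, which encode the membrane-cytoskeleton linker ezrin, together with the *Cx3cr1* tm1.1(cre)Jung/J driver, while WT mice have that driver and unfloxed *Ezr*, so cells of all libraries had the Cre allele. All mice were of C57BL/6 background and 3 to 5 months old, with 3 libraries for every population in either genotype, giving 6 groups and 18 libraries. No library of mice without LPS was among them, so the values describe levels after LPS and not induction. The *Cx3cr1* driver is also active at a low level in conventional dendritic cells, eosinophils and NK cells per the study, and in bulk samples fewer cells of a type and less RNA per cell cannot be told apart.

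LPS is sensed by TLR4 on macrophages, and the signal runs through NF-kB, AP-1 and MAP kinases to a set of cytokine genes. TNF is a membrane-bound trimer that is shed by ADAM17 and acts on TNFR1 and TNFR2, IL-6, oncostatin M and LIF signal through receptors that share the gp130 chain (*Il6st*), and IL-10 signals through IL-10R and STAT3 to restrain the same macrophages. The IL-12 family is built of pairs: p35 (*Il12a*) with p40 (*Il12b*) makes IL-12, p19 (*Il23a*) with p40 makes IL-23, p28 (*Il27*) with EBI3 makes IL-27, and p35 with EBI3 makes IL-35, so the output depends on which subunits a cell makes together.

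On GRCm39, *Tnf* (ENSMUSG00000024401) lies at chr17:35418357-35420983 on the minus strand and *Ebi3* (ENSMUSG00000003206) at chr17:56259640-56264022 on the plus strand, 28.4 Mb and 49.2 Mb from the end of *Ezr* on the same chromosome. *Osm* (ENSMUSG00000058755, chr11:4186420-4191026) and *Lif* (ENSMUSG00000034394, chr11:4207557-4222514) are neighbours on the plus strand, 16.5 kb apart. *Il6* (ENSMUSG00000025746) is at chr5:30218112-30224979, *Il10* (ENSMUSG00000016529) at chr1:130947582-130952711, *Il12a* (ENSMUSG00000027776) at chr3:68597977-68605880 and *Il12b* (ENSMUSG00000004296) at chr11:44290890-44304860, all on the plus strand. *Il23a* (ENSMUSG00000025383, chr10:128132008-128134621) and *Il27* (ENSMUSG00000044701, chr7:126188182-126194113) are on the minus strand. In the annotation used here for lengths, 4 of the 10 overlap a gene on the other strand (*Il6* with *Gm42450*, *Il12a* with *Gm66274*, *Ebi3* with *Gm16712* and *Il27* with the end of *Apobr*), and the strand setting of the counts is not given in the sources used here, so reads of such pairs cannot be told apart in the shared bases.

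The 250 bases upstream of the start site are shown for *Il6*, *Il12b* and *Ebi3*, since *Il6* was lower and the other two were higher in matIMs than in moMs. Promoters of 6 of the 10 genes were found in the RefSeq table (build GRCm38.p6) and placed on GRCm39 by exact match, and those of *Osm*, *Il10*, *Il23a* and *Il27* were not. Capitals mark matches to the NF-kB consensus, of which the *Il12b* window held none, and the RefSeq start of *Ebi3* lies 17 bases before the start given above.
Il6 (chr5:30217862-30218111, plus strand): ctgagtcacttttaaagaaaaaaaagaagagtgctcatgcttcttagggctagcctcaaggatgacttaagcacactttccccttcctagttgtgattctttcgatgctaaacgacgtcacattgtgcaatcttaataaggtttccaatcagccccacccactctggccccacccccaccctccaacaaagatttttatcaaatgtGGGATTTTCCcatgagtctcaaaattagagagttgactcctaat
Il12b (chr11:44290640-44290889, plus strand): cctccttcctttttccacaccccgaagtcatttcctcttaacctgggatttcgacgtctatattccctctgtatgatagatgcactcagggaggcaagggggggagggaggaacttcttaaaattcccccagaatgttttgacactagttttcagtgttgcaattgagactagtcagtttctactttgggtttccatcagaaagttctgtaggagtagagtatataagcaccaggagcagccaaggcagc
Ebi3 (chr17:56259373-56259622, plus strand): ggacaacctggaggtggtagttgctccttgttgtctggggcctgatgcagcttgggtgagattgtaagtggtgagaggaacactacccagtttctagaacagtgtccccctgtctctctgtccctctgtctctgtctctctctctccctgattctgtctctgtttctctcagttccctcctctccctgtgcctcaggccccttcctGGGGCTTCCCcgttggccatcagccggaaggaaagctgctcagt
The NF-kB consensus matched GGGATTTTCC in the *Il6* promoter and GGGGCTTCCC in the *Ebi3* promoter, both 44 to 35 bases before the RefSeq start, and 3.92% of the 32536 promoters in the table held such a match on either strand. The *Il6* window also held an AP-1 match (TGANTCA, 6.73% of promoters) and a C/EBP match (TTNNGNAAT, 10.2%). The *Il12b* window held 2 matches to the Ets core GAGGAA (23.4% of promoters). Among the others, *Tnf* and *Ebi3* held 1 Ets core each, *Tnf* a TATAAA box 29 to 24 bases before its start (12.3%), and *Lif* an AP-1 match. Neither the IRF core AANNGAAA (21.3%) nor the CRE TGACGTCA (1.56%) was found in the 6 windows, and *Il12a* had a match to none of the motifs. A match is a description of the letters and not evidence of binding.

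Library totals ranged from 16512783 to 48460995 counts, and replicates of every group differed by more than sampling noise. *Ezr* itself was at 497 to 741 CPM (the read count scaled to library size) in the WT libraries and at 93.8 to 282 CPM in the Ezr-KOm libraries, with no overlap and a log2 fold change of -1.20 (SE 0.24) in moMs, -1.62 (SE 0.24) in tnsIMs and -2.29 (SE 0.25) in matIMs, with edgeR's Benjamini-Hochberg adjusted p of 0.0549, 0.00365 and 7.73e-05, so transcript remained and the first did not pass the threshold. The labels were checked against marker lists, each summed in CPM. The 5 macrophage markers reached 3619 to 4679 CPM in moMs and tnsIMs and 2429.5 to 2759 CPM in matIMs, and the 5 monocyte markers 4925 to 6382 CPM in moMs, 1759 to 2584 CPM in tnsIMs and 1082 to 1352 CPM in matIMs. The 7 interstitial macrophage markers were at 2246 to 3109.6 CPM in matIMs against 3108 to 4768 CPM in the other populations. Of these, *Apoe* and *Trem2* were lower in matIMs than in moMs of either genotype (mean of *Apoe* 834 against 2484 CPM in WT), *C1qa*, *C1qb* and *C1qc* were higher (mean of *C1qb* 751 against 326 CPM in WT), and *Folr2* was near 0 in all groups. The 8 mature dendritic cell markers (among them *Ccr7*, *Fscn1* and *Ccl22*) were at 35.4 to 85.0 CPM in moMs, 414 to 770.0 CPM in tnsIMs and 5855 to 8621 CPM in matIMs, with *Il4i1* near 0 in all groups. The 7 conventional dendritic cell markers were at 799 to 1649 CPM in matIMs against 68.7 to 273 CPM elsewhere. Over all libraries, the neutrophil list summed to 225 to 661 CPM, the T and NK cell list to 26.7 to 55.4 CPM and the mast cell and basophil list to at most 1.72 CPM. The alveolar macrophage list was at 186 to 347 CPM in matIMs against 78.3 to 175 CPM elsewhere, and the fibroblast list at 47.3 to 97.5 CPM in tnsIMs against 7.75 to 29.8 CPM elsewhere. The matIM libraries are named here by their sort gate, and the part that dendritic cells have in the results below was not tested.

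By the group mean per exon length, *Osm* was the most abundant of the 10 transcripts in every group and *Tnf* the second. In WT moMs the level of *Osm* was 784 ± 168 RPKM (CPM per kilobase of exon, mean ± SD, n = 3), that of *Tnf* 295 ± 93.4 RPKM and that of *Il6* 193 ± 38.9 RPKM. *Il23a* followed at 44.5 ± 11.03 RPKM, and the other 6 were between 7.63 RPKM (*Ebi3*) and 21.2 RPKM (*Il12a*), a range within which neighbours overlapped in their SDs. In WT matIMs the order of the first 2 was kept, with *Osm* at 391 ± 41.0 RPKM and *Tnf* at 299 ± 108 RPKM, whose SDs overlapped. *Il12b* was the third there, at 112 ± 18.4 RPKM against 66.6 ± 12.8 RPKM for *Il6*. The lowest in WT matIMs were *Lif* at 4.30 ± 2.06 RPKM and *Il27* at 4.74 ± 1.503 RPKM, which did not differ beyond their spread. In Ezr-KOm matIMs *Osm* was at 338 ± 66.9 RPKM and *Tnf* at 326 ± 141 RPKM, also with overlapping SDs. *Tnf* was above *Osm* there in replicate 1 (468 against 376 RPKM) and replicate 2 (325 against 260 RPKM).

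**Figure D1:**
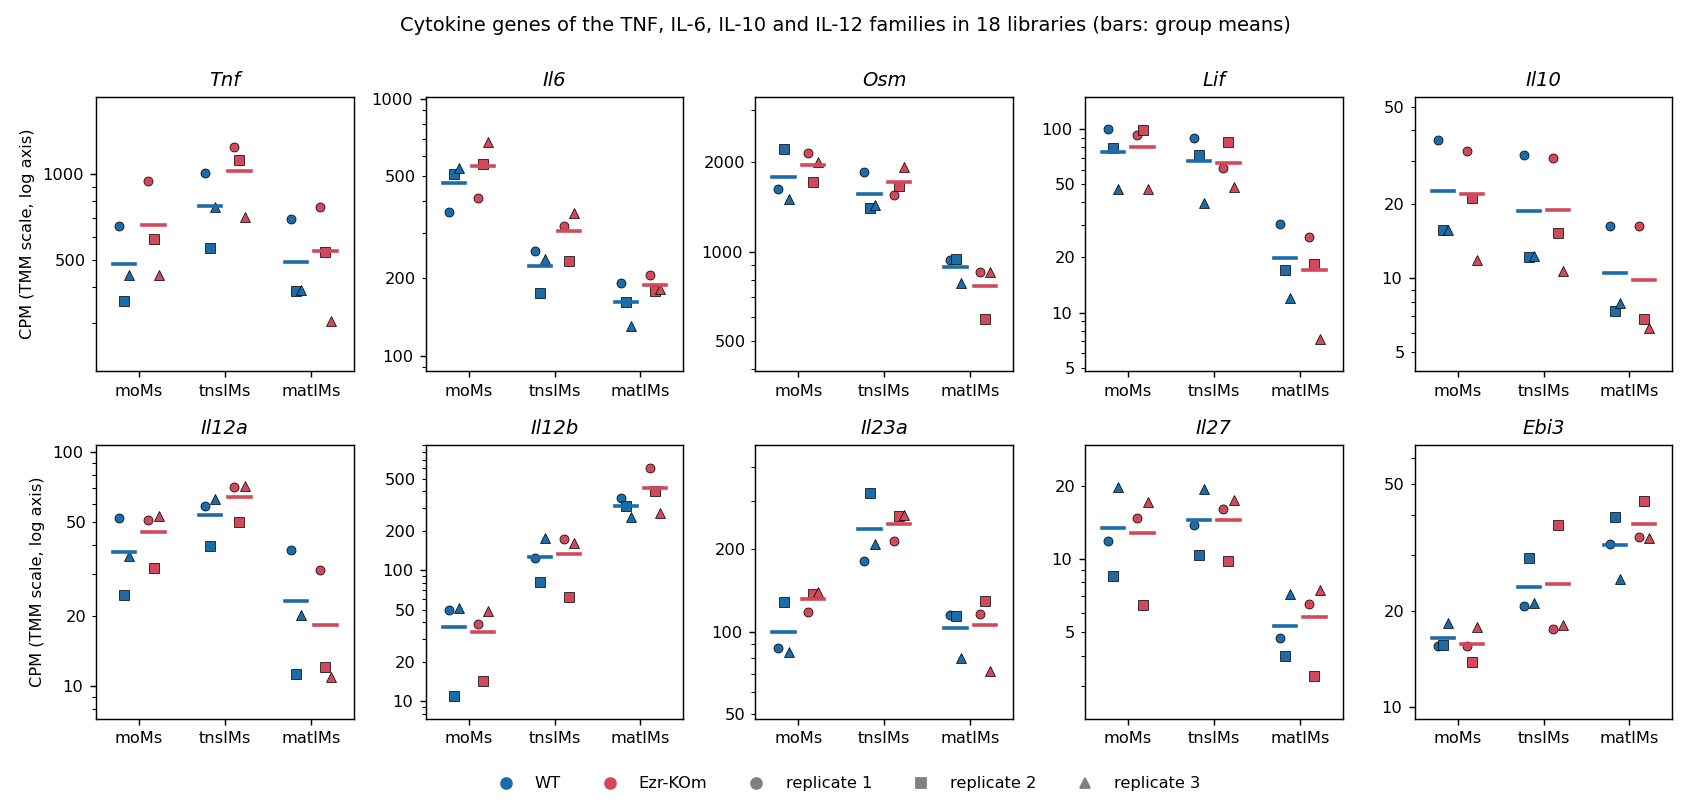
Level of each cytokine gene in the 18 libraries, in CPM on a log axis, for moMs, tnsIMs and matIMs (blue, WT; red, Ezr-KOm; symbols, replicate number; horizontal bars, means of 3 libraries). *Il12b* and *Ebi3* are highest in matIMs, *Il23a* in tnsIMs, and *Il6* in moMs, while the blue and red symbols overlap in each population of each gene.

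No difference between Ezr-KOm and WT libraries passed the test in any of the 10 genes. With edgeR's quasi-likelihood test and a Benjamini-Hochberg adjusted p under 0.05 over the 15811 genes tested, 0 of the 10 were called in moMs (0.171% of all genes were), 0 in tnsIMs (0.164%) and 0 in matIMs (0.152%), and DESeq2 called 0 as well. By the study's rule, which asks for a raw p under 0.05 and a log2 fold change beyond 0.75 in either direction, 0 of 10 were called in each population, beside 2.51%, 1.83% and 2.4% of all genes. At an unadjusted p under 0.05 the counts were 0, 1 and 0 of the 10, beside 592, 512 and 607 of all genes. The median log2 fold change of the 10 was 0.11, 0.059 and 0.073, against 0.0022, 0.0020 and -0.0014 over all genes tested. Between populations, more of the genes moved. From moMs to tnsIMs, 3 of 10 were called in WT (21.6% of all genes) and 3 in Ezr-KOm (14.3%). From tnsIMs to matIMs, 5 were called in WT (18.5%) and 7 in Ezr-KOm (18.2%), and between moMs and matIMs the counts were 6 in WT (24.8%) and 7 in Ezr-KOm (23.3%). The count of 5 was 3 without tnsIM WT replicate 3 or matIM WT replicate 2. Of all genes, 2669 and 2241 were called in those fits, against 2926 with all libraries. When the replicate number was added as a block, the counts for tnsIMs against moMs were 4 in WT (28.9% of all genes) and 4 in Ezr-KOm (20.1%), and those for matIMs against tnsIMs 8 in WT (23.1%) and 10 in Ezr-KOm (23.4%), so more of all genes were called as well. Between matIMs and moMs the blocked counts were 8 in WT (30.9% of all genes) and 8 in Ezr-KOm (29.3%). Over the 10 genes, the median log2 fold change was 0.32 and 0.34 for tnsIMs against moMs, -0.83 and -1.05 for matIMs against tnsIMs and -0.85 and -1.16 for matIMs against moMs in WT and Ezr-KOm, respectively, while the median over all genes was between 0.0067 and 0.037. The 3 comparisons of 1 genotype share libraries and are not independent of each other. Across these population comparisons, the libraries of 28.7% to 41.5% of all genes did not overlap. A lack of overlap in a cytokine gene below is to be read beside that share.

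*Tnf*, an early cytokine of the LPS response, was detected at 654, 356 and 442 CPM in replicates 1, 2 and 3 of WT moMs and at 947, 593 and 443 CPM in those of Ezr-KOm moMs. The tnsIMs held 1007, 550.2 and 763 CPM in WT and 1241, 1116 and 706 CPM in Ezr-KOm. For matIMs the values were 696, 386 and 389.6 CPM in WT and 768, 532 and 304 CPM in Ezr-KOm. Replicate 1 was the highest of its group in 6 of 6 groups, and the groups overlapped in every comparison made. The log2 fold change of tnsIMs against moMs was 0.68 (SE 0.35) in WT and 0.63 (SE 0.35) in Ezr-KOm, and neither passed the test (adjusted p = 0.185 and 0.273). With a replicate block, which the pairing check allowed for these comparisons, it was 0.69 (adjusted p = 0.0136) and 0.67 (adjusted p = 0.0213), and that of matIMs against tnsIMs was -0.69 (adjusted p = 0.0145) and -0.99 (adjusted p = 0.00112), so that all 4 were then called. Without the block, matIMs against tnsIMs gave -0.66 (SE 0.35, adjusted p = 0.243) in WT and -0.93 (SE 0.35, adjusted p = 0.0784) in Ezr-KOm, and the latter passed with DESeq2 (-0.94, adjusted p = 0.0401), without tnsIM Ezr-KOm replicate 3 (-1.19) or without matIM Ezr-KOm replicate 1 (-1.34). Between matIMs and moMs the difference was 0.019 (SE 0.35) in WT and -0.31 (SE 0.35) in Ezr-KOm, not past the test in either.

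*Il6*, which drives the acute-phase response, was measured at 361, 509 and 537 CPM in WT moMs and 409, 558 and 676 CPM in Ezr-KOm moMs. In tnsIMs it was at 257, 175 and 238 CPM in WT and 321, 234 and 359.8 CPM in Ezr-KOm. matIMs had 193, 162 and 131 CPM in WT and 206, 179 and 182 CPM in Ezr-KOm. Every moM library was above every tnsIM and matIM library of its genotype. *Il6* was lower in tnsIMs than in moMs by 2.10-fold in WT (log2 fold change -1.07, SE 0.22, adjusted p = 0.00146) and by 1.798-fold in Ezr-KOm (log2 fold change -0.85, SE 0.21, adjusted p = 0.0109). The second call was lost without moM Ezr-KOm replicate 3 (-0.65) or tnsIM Ezr-KOm replicate 2 (-0.69). matIMs were 2.90-fold below moMs in both genotypes (log2 fold change -1.54, SE 0.22, adjusted p = 3.46e-05 in WT and 3.52e-05 in Ezr-KOm). From tnsIMs to matIMs *Il6* fell by 0.69 on the log2 scale in Ezr-KOm (SE 0.21, adjusted p = 0.0293), a call that was lost without tnsIM Ezr-KOm replicate 1 (-0.65) or 3 (-0.61) or matIM Ezr-KOm replicate 2 (-0.65) or 3 (-0.69). In WT the same difference was -0.47 (SE 0.21, adjusted p = 0.157), and the libraries overlapped.

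*Osm* encodes oncostatin M, which acts on stromal cells, epithelium and hepatocytes. Its level was 1630.2, 2216 and 1499.6 CPM in WT moMs and 2160.2, 1719.8 and 2006 CPM in Ezr-KOm moMs, with 1862, 1405 and 1440.0 CPM in WT tnsIMs and 1554, 1660.3 and 1934 CPM in Ezr-KOm tnsIMs. The libraries of moMs and tnsIMs overlapped in both genotypes, with a log2 fold change of -0.18 (SE 0.18, adjusted p = 0.512) in WT and -0.19 (SE 0.18, adjusted p = 0.546) in Ezr-KOm. In matIMs *Osm* was at 939, 944 and 780.3 CPM in WT and 855, 591 and 855 CPM in Ezr-KOm, below every library of the other populations. The fold change from tnsIMs to matIMs was -0.82 on the log2 scale in WT (SE 0.18, adjusted p = 0.00292) and -1.16 in Ezr-KOm (SE 0.18, adjusted p = 1.41e-04). Against moMs it was -1.005 (SE 0.18, adjusted p = 4.11e-04) and -1.35 (SE 0.18, adjusted p = 2.10e-05). These 4 calls were kept under all alternatives run, each library left out in turn included.

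*Lif*, the gp130 cytokine next to *Osm*, was at 99.5, 79.1 and 47.0 CPM in WT moMs and 92.6, 99.3 and 47.3 CPM in Ezr-KOm moMs. Its level in tnsIMs was 90.0, 72.5 and 39.4 CPM in WT and 61.6, 85.1 and 48.4 CPM in Ezr-KOm. The matIM libraries had 30.4, 17.04 and 12.0 CPM in WT and 25.7, 18.4 and 7.21 CPM in Ezr-KOm. Each matIM library was below each library of the other populations, and replicate 3 was the lowest in 6 of 6 groups. *Lif* was lower in matIMs than in tnsIMs by 3.40-fold in WT (log2 fold change -1.77, SE 0.44, adjusted p = 0.00718) and by 3.79-fold in Ezr-KOm (-1.92, SE 0.44, adjusted p = 0.00391), and lower than in moMs by 3.80-fold in WT (adjusted p = 0.00297) and 4.65-fold in Ezr-KOm (adjusted p = 0.00105). Again these 4 calls held under all alternatives run. tnsIMs and moMs overlapped, at -0.16 (SE 0.42) in WT and -0.29 (SE 0.42) in Ezr-KOm.

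*Il10*, the anti-inflammatory member, was one of the less abundant transcripts. WT moMs had 36.4, 15.7 and 15.7 CPM and Ezr-KOm moMs 33.1, 21.3 and 11.9 CPM. WT tnsIMs had 31.9, 12.2 and 12.3 CPM and Ezr-KOm tnsIMs 30.8, 15.3 and 10.7 CPM. WT matIMs had 16.3, 7.39 and 7.97 CPM and Ezr-KOm matIMs 16.3, 6.81 and 6.29 CPM. As for *Tnf*, replicate 1 was the highest in 6 of 6 groups, and the groups overlapped in every comparison. matIMs differed from moMs by -1.10 on the log2 scale in WT (SE 0.52, adjusted p = 0.139) and by -1.17 in Ezr-KOm (SE 0.52, adjusted p = 0.117), which passed the study's rule and not the adjusted threshold. Without matIM Ezr-KOm replicate 1 the latter was -1.78 and was called. With the replicate block both were called, at -1.07 in WT (adjusted p = 9.24e-05) and -1.22 in Ezr-KOm (adjusted p = 2.62e-05). Against tnsIMs, matIMs were at -0.84 (SE 0.52, adjusted p = 0.327) in WT and -0.94 (SE 0.51, adjusted p = 0.254) in Ezr-KOm. With the replicate block these were -0.78 (adjusted p = 0.00228) and -0.95 (adjusted p = 3.83e-04), and both were called. tnsIMs against moMs gave -0.26 (SE 0.51) in WT and -0.23 (SE 0.51) in Ezr-KOm, neither past the test.

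*Il12a* encodes p35, a subunit of IL-12 and IL-35. It was at 52.3, 24.6 and 35.8 CPM in WT moMs and 51.3, 32.1 and 53.1 CPM in Ezr-KOm moMs. The values were 59.0, 39.5 and 63.1 CPM in WT tnsIMs and 71.1, 50.3 and 71.6 CPM in Ezr-KOm tnsIMs. In the mature gate they were 38.0, 11.3 and 20.0 CPM in WT and 31.5, 12.1 and 10.9 CPM in Ezr-KOm. Every matIM library was below every tnsIM library of its genotype, and replicate 1 was above the others in matIMs of both genotypes. *Il12a* was lower in matIMs than in tnsIMs by 2.33-fold in WT (log2 fold change -1.22, SE 0.41, adjusted p = 0.0457) and 3.54-fold in Ezr-KOm (-1.82, SE 0.42, adjusted p = 0.00403). The WT call was lost with DESeq2 (-1.24, adjusted p = 0.0570), with at least 10 counts in every library (-1.25, adjusted p = 0.0535), with robust empirical Bayes (adjusted p = 0.0660), and without tnsIM WT replicate 1 (-1.16) or 3 (-1.14) or matIM WT replicate 2 (-0.92) or 3 (-1.14). Against moMs, matIMs were lower in Ezr-KOm (-1.32, SE 0.41, adjusted p = 0.0258), a call lost without moM Ezr-KOm replicate 1 (-1.21) or 3 (-1.21) or matIM Ezr-KOm replicate 2 (-1.10) or 3 (-1.07). In WT that difference was -0.70 (SE 0.41, adjusted p = 0.245). It was called at -1.29 without matIM WT replicate 1 and at -0.77 with the replicate block (adjusted p = 0.0233). tnsIMs against moMs gave 0.52 (SE 0.41) in WT and 0.50 (SE 0.40) in Ezr-KOm, neither past the test.

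*Il12b* encodes p40, shared by IL-12 and IL-23, and had the largest rise of the 10 genes. It was at 49.2, 11.02 and 51.1 CPM in WT moMs and 38.8, 14.3 and 48.7 CPM in Ezr-KOm moMs. tnsIMs reached 125, 81.9 and 175 CPM in WT and 173, 62.0 and 162 CPM in Ezr-KOm. matIMs reached 357, 308 and 256 CPM in WT and 607, 402 and 275 CPM in Ezr-KOm. No library of one population overlapped with another population of the same genotype, and replicate 2 was the lowest in all 4 groups of moMs and tnsIMs. The level in matIMs was 8.28-fold that in moMs in WT (log2 fold change 3.05, SE 0.54, adjusted p = 3.15e-04) and 12.6-fold in Ezr-KOm (3.66, SE 0.55, adjusted p = 6.58e-05), and both calls were kept under all alternatives run. From moMs to tnsIMs it rose 3.43-fold in WT (adjusted p = 0.0181) and 3.90-fold in Ezr-KOm (adjusted p = 0.0138). The WT call was lost without moM WT replicate 2 (log2 fold change 1.35) or tnsIM WT replicate 3 (1.51), and the Ezr-KOm call without moM Ezr-KOm replicate 2 (1.61) or tnsIM Ezr-KOm replicate 1 (1.70). From tnsIMs to matIMs it rose in Ezr-KOm (1.70, SE 0.51, adjusted p = 0.0237), which was lost with robust empirical Bayes (adjusted p = 0.0511), without tnsIM Ezr-KOm replicate 2 (1.36) or without matIM Ezr-KOm replicate 1 (1.31). In WT the step was 1.27 (SE 0.50, adjusted p = 0.0929), and with the replicate block 1.39 (adjusted p = 0.0108). The summed mature dendritic cell markers were higher in the same order of populations, at 35.4 to 85.0 CPM in moMs and 5855 to 8621 CPM in matIMs, and their part in the result was not tested.

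*Il23a*, the p19 subunit that makes IL-23 with p40, was highest in tnsIMs. It was at 87.4, 129 and 84.1 CPM in WT moMs and 118, 138 and 140.2 CPM in Ezr-KOm moMs, and at 181, 323 and 209.6 CPM in WT tnsIMs and 214, 266 and 267 CPM in Ezr-KOm tnsIMs. In matIMs it was at 115, 114 and 79.8 CPM in WT and 116, 129 and 71.9 CPM in Ezr-KOm. Every tnsIM library was above every moM and matIM library of its genotype, while moMs and matIMs overlapped. tnsIMs were 2.38-fold above moMs in WT (log2 fold change 1.25, SE 0.24, adjusted p = 9.60e-04) and 1.89-fold in Ezr-KOm (0.92, SE 0.24, adjusted p = 0.0128). matIMs were below tnsIMs by 2.31-fold in WT (-1.21, SE 0.24, adjusted p = 0.00121) and 2.36-fold in Ezr-KOm (-1.24, SE 0.24, adjusted p = 0.00100), and these 4 calls were kept under all alternatives run. matIMs against moMs gave 0.043 (SE 0.24) in WT and -0.32 (SE 0.24) in Ezr-KOm, neither past the test. In the same tnsIM libraries the 5 epithelial markers summed to 868 to 2079 CPM against 74.4 to 389 CPM in the other populations, the 4 endothelial markers to 171 to 337 CPM against 64.4 to 99.2 CPM, and the fibroblast markers to 47.3 to 97.5 CPM against 7.75 to 29.8 CPM. Their part in the *Il23a* result was not tested.

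*Il27* encodes p28 of IL-27 and was the least abundant of the 10 by CPM in matIMs. It was at 11.8, 8.54 and 19.6 CPM in WT moMs and 14.7, 6.44 and 17.2 CPM in Ezr-KOm moMs. WT and Ezr-KOm tnsIMs were at 13.8, 10.3 and 19.3 CPM and 16.1, 9.76 and 17.5 CPM. In matIMs it was at 4.74, 3.97 and 7.19 CPM in WT and 6.53, 3.30 and 7.42 CPM in Ezr-KOm. The order of the replicates was the same in 6 of 6 groups, with replicate 3 the highest and replicate 2 the lowest, and the matIM libraries were below the tnsIM libraries of their genotype. tnsIMs differed from moMs by 0.12 (SE 0.38) in WT and 0.17 (SE 0.38) in Ezr-KOm on the log2 scale, neither past the test. The log2 fold change of matIMs against tnsIMs was -1.45 in WT (SE 0.40, adjusted p = 0.0141) and -1.33 in Ezr-KOm (SE 0.39, adjusted p = 0.0231). The first was lost without tnsIM WT replicate 3 (-1.24) or matIM WT replicate 2 (-1.31), and the second without tnsIM Ezr-KOm replicate 1 (-1.24) or 3 (-1.22) or matIM Ezr-KOm replicate 2 (-1.04). Against moMs it was -1.33 in WT (SE 0.40, adjusted p = 0.0191) and -1.15 in Ezr-KOm (SE 0.39, adjusted p = 0.0411), where the libraries overlapped. The WT call was lost without moM WT replicate 3 (-0.97) or matIM WT replicate 1 (-1.29) or 2 (-1.19). The Ezr-KOm call was lost without moM Ezr-KOm replicate 1 (-1.03) or 3 (-0.89) or matIM Ezr-KOm replicate 1 (-1.28) or 2 (-0.87), with upper-quartile normalization (-1.09, adjusted p = 0.0513), with library totals only (-1.02, adjusted p = 0.0780) and with each genotype fitted alone (-1.15, adjusted p = 0.0504).

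*Ebi3*, the partner of p28 and p35, was higher in matIMs than in moMs, while *Il27* was lower there. It was at 15.5, 15.6 and 18.3 CPM in WT moMs and 15.5, 13.8 and 17.8 CPM in Ezr-KOm moMs. tnsIMs showed 20.8, 29.2 and 21.2 CPM in WT and 17.5, 37.1 and 18.1 CPM in Ezr-KOm. matIMs showed 32.3, 39.3 and 25.1 CPM in WT and 34.1, 44.1 and 33.9 CPM in Ezr-KOm. Each matIM library was above each moM library, and tnsIMs overlapped with matIMs in both genotypes. WT tnsIMs were all above WT moMs, while in Ezr-KOm tnsIMs and moMs overlapped. matIMs were 1.96-fold above moMs in WT (log2 fold change 0.97, SE 0.25, adjusted p = 0.00771) and 2.38-fold in Ezr-KOm (1.25, SE 0.25, adjusted p = 0.00112), and the WT call was lost without matIM WT replicate 2 (0.77). Neither step in between was called. tnsIMs against moMs gave 0.52 (adjusted p = 0.150) in WT and 0.63 (adjusted p = 0.107) in Ezr-KOm, where it was called at 0.83 without tnsIM Ezr-KOm replicate 3. matIMs against tnsIMs gave 0.44 (adjusted p = 0.270) in WT and 0.62 (adjusted p = 0.0981) in Ezr-KOm, and the latter was called at 1.07 without tnsIM Ezr-KOm replicate 2 and at 0.66 with the replicate block (adjusted p = 0.0279). Beside *Ebi3*, the 5 B cell markers were higher as well, at 8.57 to 13.2 CPM in moMs and 84.6 to 222 CPM in matIMs, together with the dendritic cell markers given above, and their part in the result was not tested.

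**Figure D2:**
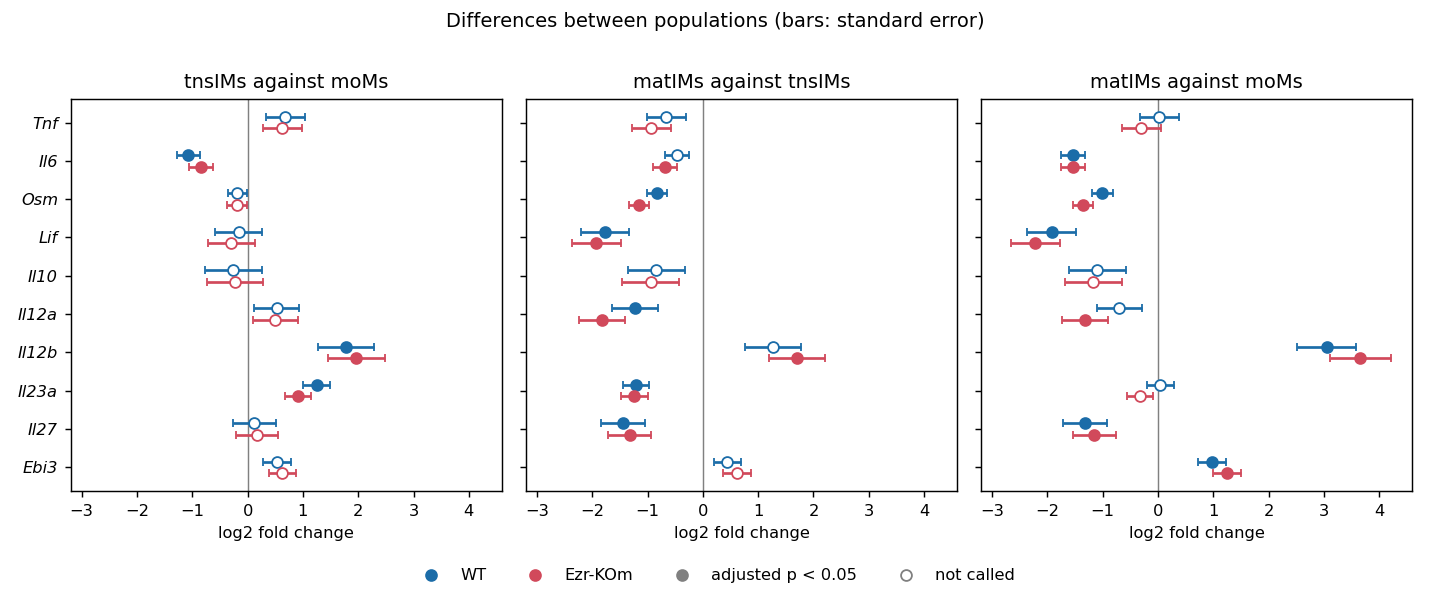
Log2 fold changes between populations from edgeR for each cytokine gene in WT (blue) and Ezr-KOm (red), with bars of 1 standard error. Filled points have a Benjamini-Hochberg adjusted p under 0.05 over 15811 genes. *Il12b* and *Ebi3* lie to the right of 0 in the 3 panels, *Il6* and *Osm* to the left, and *Il23a* to the right in the first panel and to the left in the second.

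The subunits of the IL-12 family were compared within each library by the ratio of their RPKM, tested by an exact two-sided permutation test in which 3 against 3 libraries cannot give a p below 0.1. The family held 36 such tests, and the Benjamini-Hochberg adjusted value of an exact p of 0.1 was 0.257. *Il12b* was at 0.289 to 0.923 of *Il12a* in WT moMs, at 1.34 to 1.79 times *Il12a* in WT tnsIMs and at 6.07 to 17.6 times in WT matIMs. In Ezr-KOm the ratio was 0.287 to 0.592, 0.796 to 1.57 and 12.5 to 21.5. The ranges did not overlap between populations in either genotype, and the geometric mean of the ratio was 17.6-fold higher in matIMs than in moMs in WT and 37.4-fold higher in Ezr-KOm (exact p = 0.1, n = 3 against 3, as for the other pairs of populations). The transcript of p40 was below that of p35 in all moM libraries and above it in all matIM libraries. Against *Il23a*, *Il12b* was at 0.0702 to 0.498 in WT moMs, 0.208 to 0.684 in WT tnsIMs and 2.20 to 2.63 in WT matIMs, and in Ezr-KOm at 0.0849 to 0.284, 0.191 to 0.661 and 2.55 to 4.29. Only the matIMs stood apart in both genotypes (exact p = 0.1 against each of the other populations, n = 3 against 3), while moMs and tnsIMs overlapped. Between libraries of the same replicate number, a comparison added after the data were seen, the ratio of *Il12b* to *Il23a* was higher in tnsIMs than in moMs in 6 of 6 pairs, 3 of each genotype, where the exact paired permutation test cannot give a p below 0.25. *Ebi3* was at 0.482 to 0.949 of *Il27* in WT moMs and 1.81 to 5.13 times *Il27* in WT matIMs, and in Ezr-KOm at 0.538 to 1.11 and 2.37 to 6.93, with no overlap between these 2 populations (exact p = 0.1, n = 3 against 3). The ratio of *Il23a* to *Il12a* overlapped between all populations, with medians from 1.85 in WT moMs to 5.21 in Ezr-KOm matIMs, and it was higher in tnsIMs than in moMs in 6 of 6 pairs of the same replicate number and in matIMs than in tnsIMs in 5 of 6. Between genotypes all 4 ratios overlapped in all 3 populations, with exact p of 0.2 to 1 (n = 3 against 3). RNA of 2 subunits in a pooled library does not show that the same cell makes both.

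**Figure D3:**
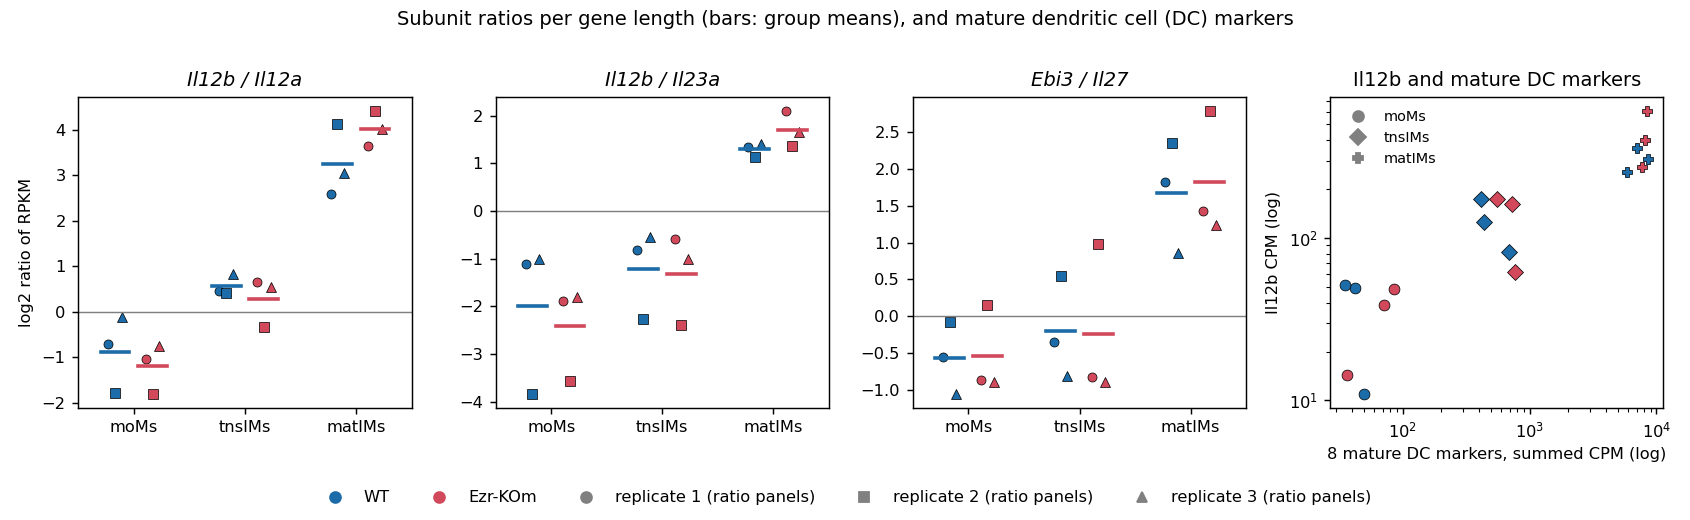
The first 3 panels show the log2 ratio of RPKM of *Il12b* to *Il12a*, *Il12b* to *Il23a* and *Ebi3* to *Il27* in each library (blue, WT; red, Ezr-KOm; bars, means of 3), and the line at 0 is an equal level per length. The right panel plots *Il12b* against the summed CPM of 8 mature dendritic cell markers on log axes, and the 6 matIM libraries form a separate cloud at 5855 to 8621 CPM of markers.

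The genotype difference in each gene was bounded by its 95% interval, since a p above the threshold does not show equal levels. The largest estimate of each population was for *Tnf* in moMs at 0.45 (SE 0.35, interval -0.29 to 1.19), *Il6* in tnsIMs at 0.45 (SE 0.21, interval 0.00057 to 0.90) and *Il12b* in matIMs at 0.48 (SE 0.49, interval -0.56 to 1.52). The *Il6* difference in tnsIMs was the 1 with an unadjusted p under 0.05 (adjusted p = 1.00), and 1 of the Ezr-KOm libraries lay within the WT range. In moMs and matIMs *Il6* was 0.22 (SE 0.21) and 0.23 (SE 0.21) higher in Ezr-KOm, again with overlapping libraries. *Tnf* was at 0.40 (SE 0.35) in tnsIMs and 0.12 (SE 0.35) in matIMs, and *Il23a* at 0.40 (SE 0.24) in moMs, 0.065 in tnsIMs and 0.036 in matIMs. The narrowest interval was that of *Osm*, which in moMs ran from -0.24 to 0.52 on the log2 scale around 0.14. For *Osm* in tnsIMs and matIMs the estimates were 0.13 (interval -0.25 to 0.51) and -0.21 (interval -0.59 to 0.17). *Il10* had an estimate of -0.027 in moMs with an interval of -1.09 to 1.04, which was -0.36 to 0.34 with the replicate block. Among the others, *Il12a* gave 0.28, 0.25 and -0.35, *Lif* 0.086, -0.047 and -0.20, *Il27* -0.068, -0.013 and 0.11, and *Ebi3* -0.067, 0.039 and 0.21 in moMs, tnsIMs and matIMs. *Il12b* was at -0.13 in moMs and 0.053 in tnsIMs, and *Il10* at 0.0030 in tnsIMs and -0.10 in matIMs. WT and Ezr-KOm libraries of every gene overlapped in every population, where 8.52%, 5.81% and 10.1% of all genes did not overlap. With the replicate block, 0 of 10 were called in the 3 populations, beside 0.266%, 0.215% and 0.24% of all genes. Across the 3 populations, 3 differences then had an unadjusted p under 0.05, as did 5.36%, 5.49% and 5.98% of all genes in moMs, tnsIMs and matIMs, and they were *Il23a* in moMs (0.43), *Tnf* in moMs (0.41) and *Il6* in tnsIMs (0.44), by edgeR with adjusted p between 0.819 and 0.930.

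**Figure D4:**
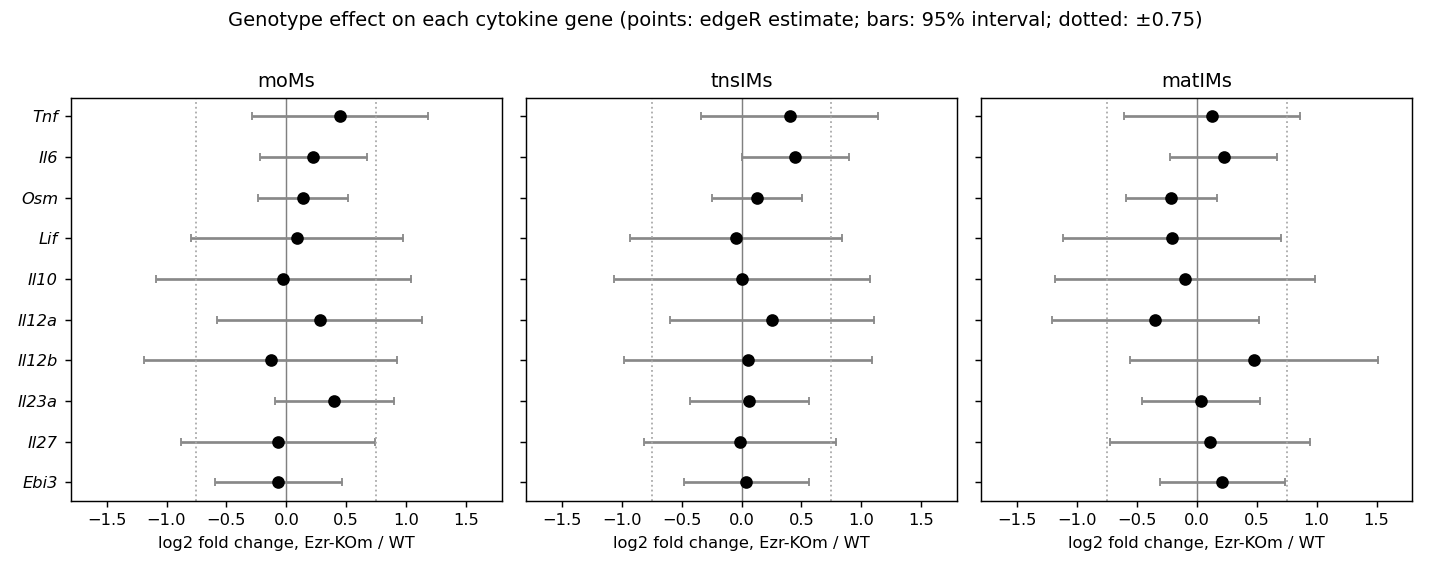
Log2 fold change of Ezr-KOm against WT for each cytokine gene in moMs, tnsIMs and matIMs (points, edgeR estimate; bars, 95% interval; dotted lines, 0.75 in either direction). All intervals include 0 except that of *Il6* in tnsIMs, whose lower end is 0.00057, and the widest are those of *Il10* and *Il12b*.

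Whether the genotype effect differed between populations was tested by the interaction terms. For tnsIMs against moMs, matIMs against tnsIMs and matIMs against moMs, 0 of the 10 genes were called, as was 0% of all genes in each, and at an unadjusted p under 0.05 the counts were 0 of the 10 beside 233, 183 and 268 of all genes. DESeq2 called 0 of the 10 as well. The largest interaction was *Il12a* in matIMs against moMs, at -0.62 (SE 0.58, adjusted p = 1.000). The 5 calls in WT and 7 in Ezr-KOm for matIMs against tnsIMs are therefore not shown to differ by genotype.

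A list of 45 receptors, kinases, regulators and other ligands of these pathways was read beside the 10 genes, and 38 of them were tested. Between genotypes 0 of 38 were called in each population. The lowest adjusted p was that of *Clcf1*, a further gp130 ligand, at 26.3 CPM in Ezr-KOm and 16.3 CPM in WT moMs (log2 fold change 0.69, SE 0.18, adjusted p = 0.283), which was the 1 gene called with the replicate block (0.69, adjusted p = 0.0335) and was named after its values were seen. From moMs to tnsIMs 7 rose and 9 fell in WT (13% of all genes rose and 8.61% fell), and 6 rose and 7 fell in Ezr-KOm (9.23% and 5.04%). With the replicate block 7 rose and 12 fell in WT (16.1% and 12.8% of all genes), with *Tnfrsf1b*, *Il10ra* and *Jak1* added. In Ezr-KOm 7 rose and 9 fell with the block (11.8% and 8.32%), with *Clcf1*, *Tnfrsf1b* and *Il6ra* added. *Osmr*, the receptor chain for oncostatin M, rose by 2.33 (SE 0.27) in WT and 1.83 (SE 0.26) in Ezr-KOm, from 2.78 to 13.9 CPM and from 4.39 to 15.7 CPM, and *Ltb*, a TNF family ligand, rose by 1.69 (SE 0.37) and 1.72 (SE 0.37). *Il27ra*, the IL-27 receptor, rose by 0.91 (SE 0.21) in WT. The TNF receptor *Tnfrsf1a* (-0.95 and -0.80), the ubiquitin ligase *Birc3* (-0.99 and -0.70) and the NF-kB regulator *Bcl3* (-0.86 and -0.81) fell in WT and Ezr-KOm, with adjusted p of at most 0.00273 in edgeR. From tnsIMs to matIMs 5 rose and 3 fell in WT (8.32% and 10.2% of all genes), and 6 rose and 5 fell in Ezr-KOm (8.37% and 9.85%). These became 8 and 5 in WT with the replicate block (10.8% and 12.4% of all genes), and 8 and 8 in Ezr-KOm (11% and 12.4%). The genes added by the block were *Tyk2*, *Rel*, *Ltb*, *Tnfrsf1b* and *Il10rb* in WT and *Traf2*, *Ltb*, *Tnfrsf1b*, *Il10rb* and *Adam17* in Ezr-KOm. *Stat4*, the STAT of IL-12 signalling, rose from 3.04 to 24.6 CPM in WT (3.01, SE 0.21, adjusted p = 3.88e-08) and from 3.67 to 29.4 CPM in Ezr-KOm (3.00, SE 0.21, adjusted p = 2.89e-08). *Birc2* (1.75 and 1.75) and the kinase *Jak2* (1.16 and 1.05) rose with it, while *Osmr* fell (-2.41 and -3.16), as did *Tnfrsf1a* in WT (-0.45) and the gp130 ligand *Ctf2* in Ezr-KOm (-1.54). Between moMs and matIMs 7 rose and 13 fell in WT (13.4% and 11.4% of all genes), with *Stat4* (2.07), *Il27ra* (1.51) and *Birc2* (1.54) lowest in p among the rises and *Tnfrsf1a* (-1.40), *Birc3* (-0.70) and the kinase *Ripk1* (-0.62) among the falls. In Ezr-KOm 7 rose and 10 fell (12.5% and 10.7%), and the lowest p were those of *Stat4* (2.64), *Birc2* (1.74) and *Ltb* (2.59), higher, and of *Tnfrsf1a* (-1.25), *Tnfrsf1b* (-0.99) and *Osmr* (-1.33), lower. Blocked by replicate number, 8 rose and 15 fell in WT (16.3% and 14.6% of all genes). In Ezr-KOm 9 rose and 15 fell with that block (15.1% and 14.1%). The counts without 1 library were as low as 4 for WT and 5 for Ezr-KOm in matIMs against tnsIMs (without matIM WT replicate 3, and without tnsIM or matIM Ezr-KOm replicate 2), 5 without tnsIM WT replicate 1 and 7 without matIM Ezr-KOm replicate 3, and 8 in tnsIMs against moMs without moM Ezr-KOm replicate 3. Fewer of all genes were called in these fits as well. They numbered 2309 to 2422 for matIMs against tnsIMs, against 2926 in WT and 2881 in Ezr-KOm with all libraries. For tnsIMs against moMs in Ezr-KOm the number was 1410, against 2257. Over the 38 genes the median log2 fold change lay between -0.27 and 0.068 in the comparisons of 2 groups.

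The genes whose pattern over the 18 libraries was most like each cytokine were named by the Pearson correlation of log2 CPM, a description in which the libraries share populations, depth and replicate number. *Tnf* went with *Gem* (r = 0.93), *Rab11fip1* (0.92) and *Sgk1* (0.90), and *Il6* with *Tlr7*, the endosomal receptor for single-stranded RNA (0.96), *Tmem165* (0.94) and *Cept1* (0.93). *Osm* was closest to *Ier3* (0.95), *Fcgr1* (0.95), which encodes the high-affinity IgG receptor, and *Lbp* (0.94), and *Lif* to *Clec4d*, *Rabgef1* and *Slpi* (0.96 each). *Il10* was closest to *Trim13*, *Klf4* and *Rgcc* (0.94 each). In the IL-12 family, *Il12b* went with *Dnase1l3* (0.96), *Gpr171* (0.94) and *P2rx5* (0.94), *Il23a* with *Ltbp1* (0.94), *Trarg1* (0.94) and *Cavin3* (0.93), and *Ebi3* with *Igkj2* (0.95), an immunoglobulin light-chain segment, *Cd207* (0.93), which encodes langerin, and *Alkbh6* (0.93). *Il12a* and *Il27* shared *C1ra* (0.88 and 0.90), beside *N4bp1* (0.90) and *Dram1* (0.88) for *Il12a* and *Scarf1* (0.88) and *Dusp6* (0.88) for *Il27*.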

How the data were processed

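The deposited values are whole-number read counts per gene, which the authors made with STAR 2.7.9a on GRCm39 with Gencode M29 and did not normalize. The strand setting is not given in the sources used here. Lengths for RPKM came from a later annotation of the same build. Totals were 16512783 to 48460995 counts, and the lowest count of a cytokine gene in a library was 93.

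Libraries were grouped by the labels. Genes were kept by filterByExpr (minimum count 10), which left 15811 of 21254. They were scaled by TMM and fitted in 1 quasi-likelihood model of 6 groups (edgeR 4.0.16, R 4.3.3), with Benjamini-Hochberg adjustment over all genes tested. CPM are TMM-scaled and intervals are 95%. DESeq2 1.42.0, other scalings and filters, libraries left out and a replicate block were tried. On simulated data for the moM genotype comparison (15811 genes), 80.5% of 200 genes changed by a log2 fold change of 2 were recovered, and 5.29% of the calls were false. That change was far larger than the *Tnf* estimate of 0.45, the largest of the cytokine genes in moMs. Recovery of differences of that size was not measured. The labels call the replicates biological without tying populations to a mouse. The study gives 3 mice per genotype for these data, so libraries of different populations may share a mouse. The main fit takes the 18 libraries as independent, so p-values measure the spread between these libraries.

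Libraries of the same replicate number deviated together (r of 0.102 to 0.397 in 7 comparisons), so blocked values are printed there where the call of a cytokine gene changes, and blocked counts for the pathway list. For matIMs against moMs the lowest r was 0.0947 in WT and 0.0905 in Ezr-KOm, and the number was not taken as a pairing. Those values were still above every r between different numbers, which was at most 0.0094 in WT and 0.032 in Ezr-KOm. The unblocked fit may therefore miss a pairing there, and the blocked calls are printed beside it. The 10 genes, the pathway list and the marker lists were chosen with earlier results of these data known. All 10 genes are named in every comparison of 2 groups. Of the pathway list, the 3 called genes of smallest p in each direction are named, except for 1 gene that is not reported here, and for each cytokine the 3 genes of highest correlation over 18 libraries (log2 CPM, prior count 2).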

Additional observations from a re-analysis of the deposited data

How the results depend on the processing

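Of the log2 fold changes under settings that left out no library, 743 kept their direction and side of the threshold, 23 passed it newly, 7 no longer passed and 7 reversed. The 7 reversals were all of differences near 0. For Ezr-KOm against WT in tnsIMs, *Il10* was -0.0011 with DESeq2 and -0.0067 with at least 10 counts in every library, *Lif* 0.031, *Il12b* -0.015 and *Il27* 0.0035 with the replicate block, and *Il27* 0.0086 with each population fitted alone. *Tnf* in matIMs against moMs of WT was -0.0033 with the replicate block. The number of cytokine genes called for matIMs against tnsIMs in WT was 8 with the replicate block and with the block within genotype, against 5 without it, and 3 to 5 with 1 library left out. Of all genes, 3654 and 3773 were called with these blocks, and 2926 without a block. The fits that called 3 cytokine genes called 2669 and 2241 of all genes. For matIMs against moMs, where the number was not taken as a pairing, the block called *Il10* in WT (-1.07, adjusted p = 9.24e-05) and Ezr-KOm (-1.22, adjusted p = 2.62e-05) and *Il12a* in WT (-0.77, adjusted p = 0.0233). For the pathway list the block gave 13 calls in place of 8 for matIMs against tnsIMs in WT (3654 of all genes in place of 2926). It gave 1 in place of 0 for genotype in moMs (42 of all genes in place of 27). The block raised the pathway count in the other comparisons of populations as well, as given with the results. With 1 library left out the pathway counts were 4 to 7 for matIMs against tnsIMs in WT, 5 to 11 in Ezr-KOm and 8 to 12 for tnsIMs against moMs in Ezr-KOm. The block changed no other call of a cytokine gene beside those given with the results. Upper-quartile scaling moved the median of all genes to 0.11 for tnsIMs against moMs in WT, and library totals to 0.11 and 0.13 for matIMs against moMs in WT and Ezr-KOm, and no cytokine gene changed direction under these scalings. The cause of these shifts was not tested.

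With 1 library left out, 440 log2 fold changes kept direction and side, 6 passed newly, 33 no longer passed and 61 reversed. Differences that reversed spanned the following ranges. For genotype in moMs they were -0.17 to 0.025 for *Ebi3*, -0.46 to 0.49 for *Il10*, -0.56 to 0.25 for *Il12b*, -0.34 to 0.33 for *Il27* and -0.17 to 0.35 for *Lif*. For genotype in tnsIMs they were -0.42 to 0.23 for *Ebi3*, -0.56 to 0.67 for *Il10*, -0.20 to 0.39 for *Il12b*, -0.076 to 0.35 for *Il23a*, -0.20 to 0.24 for *Il27* and -0.33 to 0.25 for *Lif*. For genotype in matIMs they were -0.69 to 0.38 for *Il10*, -1.01 to 0.24 for *Il12a*, -0.14 to 0.26 for *Il23a*, -0.10 to 0.39 for *Il27*, -0.63 to 0.26 for *Lif* and -0.24 to 0.48 for *Tnf*. Between tnsIMs and moMs they were -0.89 to 0.27 for *Il10*, -0.12 to 0.51 for *Il27*, -0.44 to 0.14 for *Lif* and -0.34 to 0.015 for *Osm* in WT, and -0.77 to 0.24 for *Il10* and -0.14 to 0.46 for *Il27* in Ezr-KOm. Between matIMs and moMs they were -0.10 to 0.24 for *Il23a* and -0.35 to 0.26 for *Tnf* in WT, and -0.69 to 0.064 for *Tnf* in Ezr-KOm. Between replicates of a group, chi-square per degree of freedom was 19.6 to 86.4, so the spread between libraries was far above counting error.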
